A study of Mus musculus with 2 samples.

Results

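Neurotrophins and the GDNF family are secreted survival and branching factors, and 8 of their ligand and receptor genes (Bdnf, Ntf3, Ngfr, Ntrk2, Ntrk3, Gdnf, Ret and Gfra1) were examined in the wild-type mouse embryo at E14.5. The members were taken as every probe set that the array's annotation pairs with 1 of these symbols. This gave 27 probe sets for 7 of the 8 genes, out of 34958 probe sets and 18194 genes that could be named in the same way. Ntf3, the gene of neurotrophin 3, paired with no probe set and was not analysed here. Total RNA of whole embryos was hybridised to 2 Affymetrix mouse genome arrays, which are duplicates of 1 condition, with no mutant, treated or staged group beside them. Separate embryos or separate RNA behind the duplicates are not stated in the labels, and their spread may be purely technical. The study's E14.5 embryos were of the NMRI or the C57/BL6 strain, and which of these supplied the RNA is not stated in the sources used here. Signals are linear GCOS values, and both arrays had a mean of 100 after trimming of 2% at each end. Marker genes of 9 tissues, 1 per tissue, were all above background as defined below, against 65.5% of all genes. The tissues were liver, skeletal muscle, cartilage, neurons, neural progenitors, epidermis, endothelium, embryonic blood and fibroblasts. With a stricter bound, the 99th percentile, 8 of these 9 genes passed.

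Each neurotrophin acts through 2 kinds of receptor. The Trk receptors are tyrosine kinases, of which TrkB (Ntrk2) binds BDNF and TrkC (Ntrk3) binds neurotrophin 3, whereas the p75 receptor (Ngfr) binds all neurotrophins and has no kinase. GDNF is held by the lipid-anchored coreceptor GFRα1 (Gfra1) and signals through the Ret tyrosine kinase. In the mouse embryo neurotrophins sustain sensory and sympathetic neurons, and GDNF and Ret are required for the enteric nervous system and for outgrowth of the ureteric bud into the kidney mesenchyme.

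Of the 7 measured genes, 6 (85.7%) were above background on both arrays, namely 1 ligand gene, Bdnf, and the 5 receptor genes Ngfr, Ntrk2, Ntrk3, Ret and Gfra1. The exception was the ligand gene Gdnf. Over all genes the share above background was 65.5%. Background is the signal below which 95% of 81 probe sets for chemosensory receptor genes (olfactory, vomeronasal and taste) lay, with silence of these genes assumed, and this bound was 27.9 on array 1 and 33.8 on array 2. A gene counts as above background where each array has at least 1 of its probe sets over the bound. Counted by probe set the picture was different. Only 11 of the 27 member probe sets (40.7%) passed on both arrays, against 55.6% of all probe sets with 1 symbol, a further 3 passed on array 1 only, and 13 passed on neither. All 3 that were split between the arrays lay near the bound. The share of genes above background depended on how many probe sets represent a gene, with 48.6% for genes with 1, 76.1% for genes with 2, 87.4% for genes with 3 and 100% for the 33 genes with 8. Levels of different probe sets are not set against each other here, since each responds to its target in its own way.

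**Figure D1:**
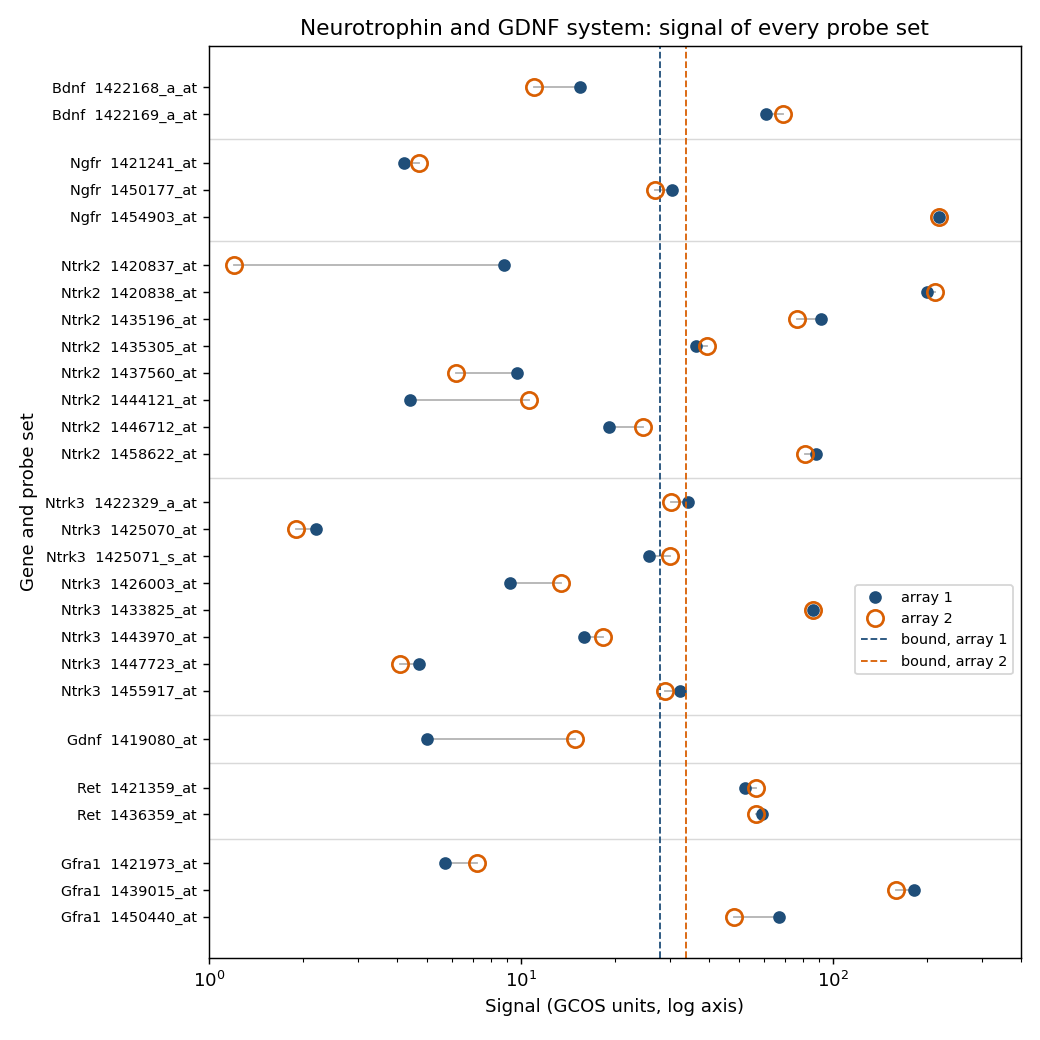
Signal of each of the 27 member probe sets on array 1 (filled) and array 2 (open), on a log axis in GCOS units, with the background bound of each array as a dashed line. Probe sets of 1 gene spread to both sides of the bounds for Bdnf, Ngfr, Ntrk2, Ntrk3 and Gfra1, both Ret probe sets lie to the right, and the Gdnf probe set lies to the left.

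Bdnf encodes brain-derived neurotrophic factor, the TrkB ligand. Probe set 1422169_a_at had signals of 61.2 on array 1 and 69.1 on array 2, about 2 times the bound of each array (2.19 and 2.04). The other, 1422168_a_at, had 15.4 and 11.0. The call of Bdnf thus rests on 1 of its 2 probe sets, although the annotation gives the same source sequence for both.

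Gdnf encodes glial cell line-derived neurotrophic factor and was represented by 1 probe set. Its signals were 5.0 on array 1 and 14.9 on array 2, both under the bound. No fold between the duplicates is given for values under the bound. A signal below background does not show that the transcript is absent. In RNA of whole embryos a transcript confined to few cells and a low level in many cells cannot be told apart.

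Ngfr encodes p75, the receptor shared by the neurotrophins. Its probe set 1454903_at had signals of 219.4 and 219.1, so the duplicates were nearly equal. Probe set 1450177_at passed only on array 1 (30.4 on array 1 and 26.9 on array 2), and 1421241_at had 4.2 and 4.7.

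Ntrk2, the TrkB gene, was above background through 4 of its 8 probe sets. They were 1420838_at with 200.7 and 213.0, 1435196_at with 91.4 and 76.5, 1458622_at with 88.2 and 81.2, and 1435305_at with 36.4 and 39.6. The last was close to the bound, at 1.3 times on array 1 and 1.17 times on array 2. The remaining 4 probe sets ranged between 1.2 and 24.6. The number that passed, 4, was also the median over the 33 genes with 8 probe sets.

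Ntrk3, the TrkC gene, also has 8 probe sets, of which only 1433825_at passed on both arrays, with 86.3 on array 1 and 86.6 on array 2. Probe sets 1422329_a_at (34.3 and 30.3) and 1455917_at (32.4 and 29.0) passed on array 1 only. The other 5 had signals from 1.9 to 30.1. Of the 33 genes with 8 probe sets, 5 had no more than 1 above background, Ntrk3 among them.

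Ret, the signalling receptor of the GDNF family, was the only member with several probe sets whose probe sets all passed. They had 52.2 and 56.5 for 1421359_at and 59.3 and 56.7 for 1436359_at, between 1.67 and 2.13 times the bound. Gfra1, the coreceptor of GDNF, passed through 2 of 3 probe sets. Signals were 182.2 and 159.4 for 1439015_at and 67.1 and 48.3 for 1450440_at, while 1421973_at had 5.7 and 7.2. The receptor pair for GDNF was above background on both arrays, and the single probe set of the ligand was not.

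Among the members 5 pairs of probe sets share a source sequence in the annotation, 1 pair each for Bdnf, Ngfr, Ntrk2, Ntrk3 and Gfra1. In 3 of the 5 pairs (Bdnf, Ntrk2 and Gfra1) 1 probe set passed the bound on both arrays and its partner did not, and in the pairs of Ngfr and Ntrk3 neither passed on both. For Ntrk2 the partners were 1420838_at, with 200.7 and 213.0, and 1420837_at, with 8.8 and 1.2. For Gfra1 they were 1450440_at and 1421973_at. Over all genes 27.3% of 3223 such pairs were split in this way. In 1634 of the 3223 pairs both passed, which was the case for 0 of the 5 member pairs. With 5 pairs this is a description, and whether it depends on the probes or on the transcripts was not tested.

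The duplicates gave near signals for the members above background. The log2 difference (array 2 minus array 1, centred on the median of all 22138 probe sets above background) ranged from -0.48 to 0.17 over the 11 member probe sets, with a median of -0.01. On array 2, 4 were higher and 7 lower. None differed by more than 1.5-fold, against 3.74% of all probe sets above background, and 11 probe sets are too few to tell these shares apart. The largest difference was that of Gfra1 probe set 1450440_at, at -0.48. The SD was 0.31 over the 5497 probe sets above background on both arrays with a geometric mean signal under 60. It was the only member probe set beyond 1 SD of its signal class. The other Gfra1 probe set above background, 1439015_at, was lower on array 2 as well, at -0.20, within the SD of 0.22 for mean signals from 120 to 240. Bdnf was at 0.17, the highest, and the Ret probe sets were at 0.10 and -0.07, all within the spread between the arrays.

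**Figure D2:**
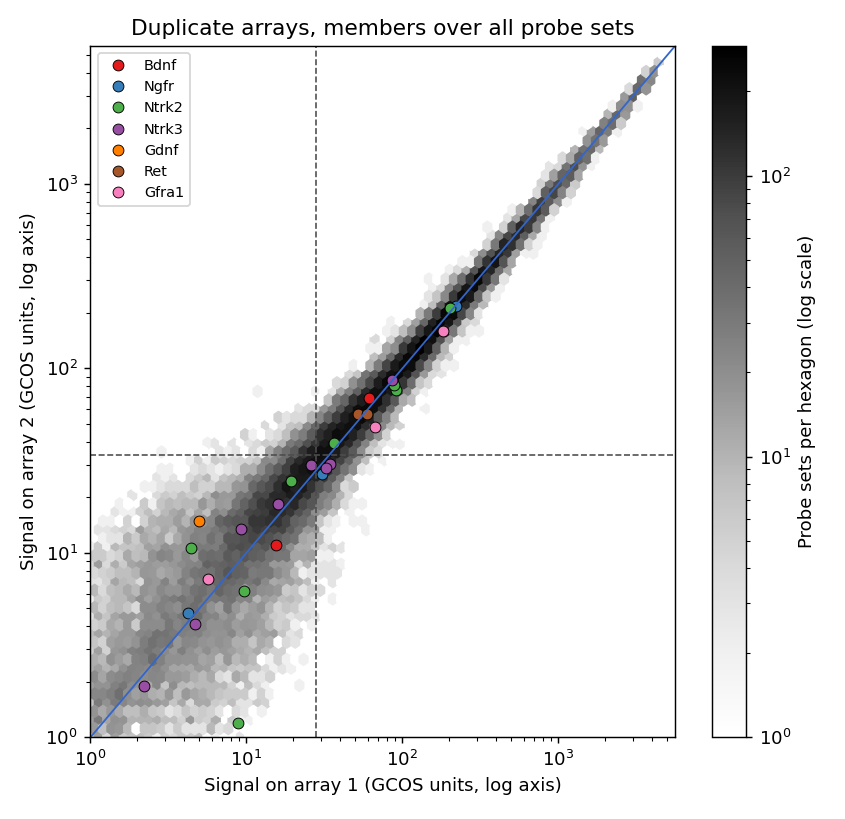
Signal on array 1 against signal on array 2, both on log axes in GCOS units, for member probe sets (coloured by gene) over all probe sets of the array with a signal of at least 1 on both arrays (grey, darker where there are more). The 11 member probe sets above both bounds (dashed) lie along the line of equal signal (blue), and those under the bounds scatter more widely.

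The other genes of both systems were also uneven between ligands and receptors. Of the other ligand genes 1 of 4 measured passed: Nrtn, which encodes neurturin, with signals of 141.3 and 112.7. Artn (artemin) had 13.8 and 7.1, Pspn (persephin) had 21.3 and 25.3, and Ntf5, the neurotrophin 4 gene of the mouse, passed only on array 1, with 31.8 and 28.9. Each of these ligand genes, like Gdnf, was represented by 1 probe set, the class with the lowest share above background. Counted with the members, 2 of 6 measured ligand genes and 13 of 14 measured receptor and coreceptor genes were above background, against 65.5% of all genes. Of the genes with a single probe set, 1 of 5 ligand genes and 3 of 3 receptor genes (Gfra3, Gfra4 and Sorcs2) passed. With so few genes this difference was not tested.

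Among the other receptors and coreceptors 8 of 9 measured genes passed, against 65.5% of all genes. Gfra2, the coreceptor for neurturin, had 169.2 and 162.0. Gfra3, the coreceptor for artemin, had 57.5 and 89.4 through its single probe set, and Gfra4, that for persephin, had 67.3 and 75.6. The highest signals of Gfra2 came from a probe set of a kind open to cross-hybridisation, but 1 probe set outside that kind, 1425579_at, also passed, with 54.4 and 60.7. Probe sets 1423007_a_at (18.3 and 25.1) and 1425578_a_at (13.3 and 19.4), also outside that kind, passed on neither array. The measured coreceptor genes Gfra1, Gfra2, Gfra3 and Gfra4 were thus above background, whereas 3 of the 4 measured ligand genes of the GDNF family were not. The 4 ligand genes have 1 probe set each, and of the coreceptor genes Gfra1 has 3 and Gfra2 has 5, while Gfra3 and Gfra4 have 1 each.

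Of the sorting receptors, Sort1, a partner of p75 that binds uncleaved neurotrophins, had 354.4 and 274.7, Sorl1 had 210.1 and 175.8, and Sorcs2 had 126.7 and 108.1. Sorcs3 passed near the bound, with 32.3 and 42.3, and Sorcs1 did not pass, with 22.8 and 22.3. Ncam1, a cell adhesion molecule that can also bind GDNF, had 859.3 and 845.8.

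Genes of partner proteins of p75 passed in 10 of 10 measured cases, where the share over all genes was 65.5%. Maged1 had 949.5 and 792.5, Bex3 had 1158 and 1039, Bex1 had 3050 and 2719, and the ubiquitin ligase gene Traf6 had 36.3 and 38.3, near the bound. Traf6 passed through 1 of its 5 probe sets. Adaptors and kinases that act downstream of Trk and Ret passed in 27 of 30 cases. Shc1, which links activated receptors to Ras, had 151.6 and 176.9, and Shc2 had 40.3 and 48.1 through 1 of its 3 probe sets. Those that did not pass were Shc3 (15.5 and 39.4, above the bound on array 2 only), Shc4 (18.5 and 15.1) and Dok5, an adaptor of Ret, TrkB and TrkC (7.5 and 10.6).

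Genes that process the ligands and receptors passed in 11 of 13 cases. Furin, a convertase that cuts proneurotrophins, had 120.7 and 144.7, Pcsk5 had 182.8 and 163.8 and Pcsk6 had 229.8 and 222.1. Pcsk1, the convertase of the regulated secretory pathway, had 4.8 and 3.9, and the protease gene Mmp7 had at most 25.7, and neither passed. Transcriptional responses and feedback genes passed in 7 of 11 cases (63.6%), close to the 65.5% of all genes. Etv5 (145.7 and 137.2), Spry1, an inhibitor of Ret signalling in the kidney (209.8 and 182.0), and Spry2 (158.3 and 176.7) were above background. Etv4, which acts with Etv5 downstream of Ret in the ureteric bud, was not, with 14.9 and 11.7. The activity-dependent neuronal genes Arc (4.3 and 3.5), Vgf (12.0 and 15.4) and Npas4 (2.1 and 1.4) were not either.

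Regulators of Gdnf and Ret in the kidney passed in 9 of 11 cases, against 65.5% of all genes. Eya1 (57.5 and 70.9), Six2 (122.8 and 108.8), Sall1 (97.0 and 105.6) and Hoxa11 (56.4 and 70.3), which mark or specify the metanephric mesenchyme where Gdnf is made, were above background. Eya1 passed through 1 of its 3 probe sets and Sall1 through 1 of 2. Hoxd11 (8.8 and 2.7) and Gdf11 (16.7 and 28.6) were not. The 7 lists of pathway genes outside the members together held 88 measured genes, of which 73 (83.0%) passed. The share was 65.5% over all genes, with 48.6% for genes with 1 probe set, 76.1% with 2 and 87.4% with 3. Whether the number of probe sets bears on the share in these lists was not tested.

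**Figure D3:**
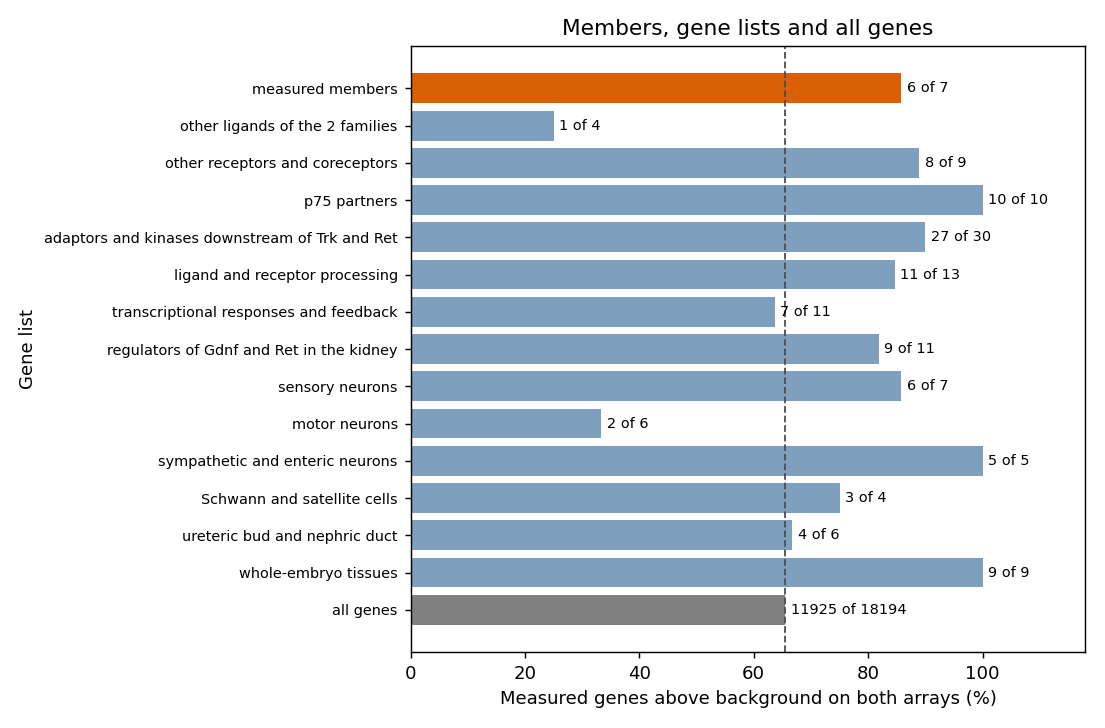
Share of measured genes above background on both arrays, in percent, for the members (orange), each gene list (blue) and all genes (grey and dashed line), with the numbers of genes beside the bars. The members reach 6 of 7, other ligands 1 of 4 and other receptors 8 of 9, against 65.5% of all genes.

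The lists of markers of cells known to use these factors hold 4 to 7 measured genes each, and the differences between their shares were not tested. Over all genes the share above background was 65.5%. Sensory neuron genes passed in 6 of 7 cases, with Isl1 at 114.0 and 121.4, Pou4f1 at 51.0 and 61.8 and Prph at 180.3 and 189.2. The exception was Tlx3, at 35.7 and 33.5, which passed on array 1 only. Of the 18 probe sets of the measured sensory neuron genes 8 passed on both arrays, against 55.6% of all probe sets with 1 symbol. Pou4f1 passed through 1 of its 2 probe sets and Prph through 2 of 4. Genes of sympathetic and enteric neurons, cells known to depend on Ret or neurotrophins, passed in 5 of 5 cases, among them Phox2a (34.2 and 66.1), Hand2 (199.7 and 198.9), Ednrb (407.5 and 329.4) and Th (43.1 and 45.2). Schwann and satellite cell genes, which include cells that express p75, passed in 3 of 4 cases, with Sox10 at 127.0 and 111.8, Erbb3 at 262.1 and 238.3 and Foxd3 at 46.2 and 47.5, but not Cdh19 at 9.8 and 8.7. Motor neuron genes passed in 2 of 6 cases, namely Isl2 (39.0 and 50.3) and Lhx3 (51.0 and 45.7), and not Mnx1 (11.3 and 9.9), Chat (4.0 and 21.7), Slc5a7 or Slc18a3. Of these 6 motor neuron genes 5 have a single probe set, the class in which 48.6% of all genes passed, and of those only Isl2 passed. In the sympathetic and enteric list Phox2a and Th also have a single probe set, and both passed. Hand2, Ednrb and Dbh of that list have 3 each, the class in which 87.4% passed. Whether the number of probe sets bears on the difference between these lists was not tested. Of the listed genes of the ureteric bud and nephric duct 4 of 6 (66.7%) passed in this whole-embryo RNA, near the share of all genes. They included Wnt11, a target of Ret signalling (112.2 and 123.5), and Emx2 (83.6 and 66.6), but not Hoxb7 (13.2 and 7.1) or Wnt9b (at most 11.7). The arrays carry no information on position, and no signal of a member or of a listed marker can be assigned to any of these cells.

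The sequence before the start of transcription was set beside these calls, because genes with many CG dinucleotides there were more often above background in this RNA. The 250 bases before the most upstream listed start were taken from RefSeq (GRCm38.p6), and 5 of the 7 measured members were in that table, as were 14453 measured genes. The count of CG, which reads the same on both strands, had a median of 13 over these genes. Of 3412 genes with 0 to 4 such dinucleotides 32.0% were above background, compared with 58.2% for 5 to 9, 77.5% for 10 to 14, 83.4% for 15 to 19, 86.0% for 20 to 24 and 85.0% for 25 to 56. Gdnf, the member not above background, had 7, the fewest among the 5 measured members with a window. At least as many were found in 68.9% of genes. Bdnf, in the same class, had 9 and Gfra1 had 10, and both were above background. Ngfr with 16 and Ntrk2 with 19 lay above the median of 13. Bdnf has 7 listed starts, with 1 to 13 CG dinucleotides each, and Gdnf has 2, with 7 and 14, so the count depends on the start that is used and the starts in use in these embryos were not measured.

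Shown are the windows of Bdnf (chr2:109674450-109674699, plus strand), Ngfr (chr11:95587699-95587948, minus strand) and Gdnf (chr15:7809798-7810047, plus strand) of GRCm38.p6. These windows cover the range from the member window with the fewest CG dinucleotides to a window above the median. They run 5′ to 3′ and end at the base before the start, with each CG in capitals.
Bdnf: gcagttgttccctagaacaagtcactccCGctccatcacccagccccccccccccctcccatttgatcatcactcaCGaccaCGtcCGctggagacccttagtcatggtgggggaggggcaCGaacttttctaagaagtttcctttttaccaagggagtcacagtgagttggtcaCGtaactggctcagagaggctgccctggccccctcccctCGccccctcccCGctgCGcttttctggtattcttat
Ngfr: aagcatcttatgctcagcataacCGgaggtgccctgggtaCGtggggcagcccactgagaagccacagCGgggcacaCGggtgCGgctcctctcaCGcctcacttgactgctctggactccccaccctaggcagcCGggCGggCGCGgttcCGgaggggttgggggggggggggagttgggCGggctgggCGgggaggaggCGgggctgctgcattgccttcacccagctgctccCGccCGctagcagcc
Gdnf: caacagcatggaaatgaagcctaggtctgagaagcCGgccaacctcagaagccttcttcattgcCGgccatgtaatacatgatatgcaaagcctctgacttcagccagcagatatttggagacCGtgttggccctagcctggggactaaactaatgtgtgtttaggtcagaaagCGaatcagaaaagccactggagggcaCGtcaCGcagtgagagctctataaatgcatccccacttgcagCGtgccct
Of the 16 CG dinucleotides of Ngfr 10 lie in the 125 bases nearest the start, as do 4 of the 9 of Bdnf and 4 of the 7 of Gdnf. A count of CG is a property of the window and names no factor or cause.

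**Figure D4:**
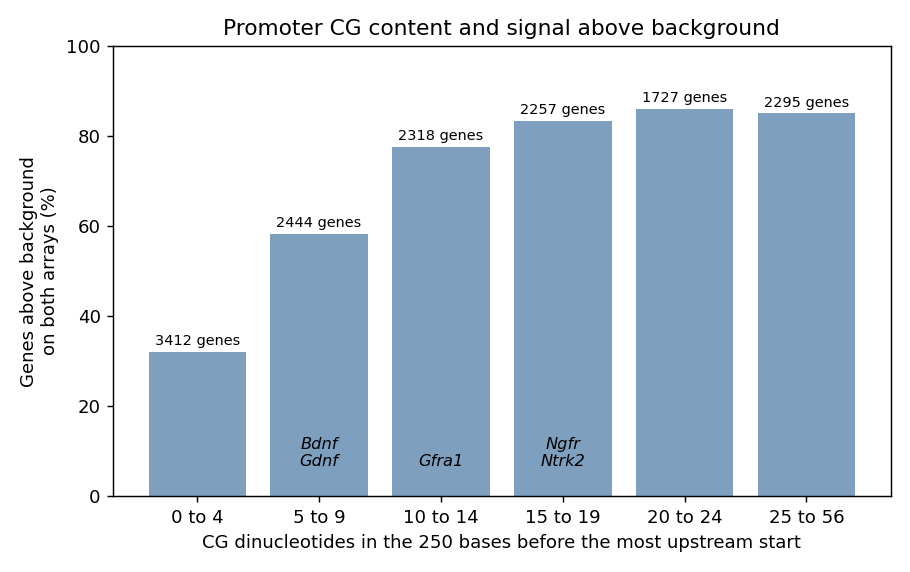
Share of genes above background on both arrays, in percent, by the number of CG dinucleotides in the 250 bases before the most upstream listed start, with the number of genes over each bar and the members of each class written in it. The share is 32.0% in the lowest class and 83.4% to 86.0% in the 3 highest classes, and the 5 members with a window fall into classes from 5 to 19.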

How the data were processed

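Total RNA of E14.5 wild-type mouse embryos, isolated with RNAzol, was measured on 2 arrays of 1 condition. The deposited values are signal intensities on a linear scale, made by the authors with GCOS 1.3 (submitters' processing notes), scaled to a trimmed mean of 100 and not logged. Detection calls were not used here. The number of arrays limits the precision. Symbols came from the array's annotation and were updated through gene identifiers in RefSeq (GRCm38.p6, names only) for 34754 of 34958 probe sets with 1 symbol. For genes with several probe sets outside the members, the one with the highest mean is printed, and others of the same gene may not pass. No p-value was computed, since 1 condition allows no comparison between groups. Members and lists (156 names, 132 measured, the others not analysed here) were chosen with earlier results of these data known. The text names all members, other ligands and receptors, and of each further list the first 4 measured genes and exceptions of 5 or fewer. Alternatives were the 90th and 99th percentile, the array median, removal of probe sets ending in _s_at or _x_at, 1 array, the same probe set on both arrays and, for differences, no centring, quantile normalization and log2(signal + 16). The steps were run on simulated data with expressed and silent probe sets set well apart, which does not test calls near the bound. Python 3.11.15, pandas 2.3.3, numpy 2.4.6, scipy 1.17.1 and matplotlib 3.10.9 were used.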

Additional observations from a re-analysis of the deposited data

How the results depend on the processing

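Under all 7 alternatives for the bound, the probe sets and the arrays, 6 member genes were above background and Gdnf was not. The number of member probe sets above background was 10 at the 99th percentile and 14 at the 90th, and 11 to 14 with either array alone. With the 90th percentile bound Ntrk3 passed through 4 probe sets instead of 1. With array 1 alone Ntrk3 passed through 3 and Ngfr through 2 instead of 1. Other ligands reached 2 with the 90th percentile bound, which Ntf5 then passed, and 1 to 2 with either array alone. Of 91 list counts under the alternatives, 89 were within 1.5 times the value reported. This is a loose check, since lists in which nearly all measured genes passed could not rise by that much. The median log2 difference of the members lay between -0.04 and -0.002 under the 5 alternatives. In those limited to probe sets above the bound, no member probe set differed by more than 1.5-fold. With log2(signal + 16), which took in all 27 member probe sets, differences ranged from -0.56 to 0.53. The added 16 shrinks differences between low signals, so these values are not folds of the signals themselves. The median differs from 0 by far less than the SD of 0.26 between the arrays. No paired analysis was possible because there is 1 condition. Signals near the bound, such as those of Ntrk2 probe set 1435305_at and of Sorcs3, are the least certain calls.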

Other observations

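Of 167 probe sets of list genes outside the members that were above background on both arrays, 4 (2.4%) differed by more than 1.5-fold between the duplicates. Lower on array 2 were Plg, the gene of plasminogen, a protease precursor made in liver (153.6 and 79.5, log2 difference -0.96), and Adam17 probe set 1421858_at (150.8 and 100.8, -0.59). Higher on array 2 were Gfra3 (57.5 and 89.4, 0.63) and Phox2a, a transcription factor of autonomic neurons (34.2 and 66.1, 0.94). Plg, Gfra3 and Phox2a each have 1 probe set, so no second measurement on the same array bears on the difference. Adam17 has a second probe set above background on both arrays, 1421859_at, whose signals were 75 on array 1 and 69 on array 2. Each of the 4 rests on a single pair of duplicate arrays.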
